A study of Mus musculus with 24 samples.

Results

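The comparison described here was that of precursor cells that express full-length NFIA with control precursor cells, before adipocyte differentiation was induced (day 0). Its members were the 11299 of 24825 listed genes that are at least 200 bases long and reached an FPKM (read fragments for each kilobase of a gene and each 1000000 fragments counted) of at least 1 in at least 3 of the 6 libraries compared, 3 labelled Cre + NFIA and 3 labelled ctrl. The remaining 13526 genes did not meet this rule, which uses no difference between the groups. Of the members, 84 met it only through the Cre + NFIA libraries and 85 only through the ctrl libraries, and such genes had to differ. At the edge of the rule, 251 members reached an FPKM of 1 in exactly 3 of the 6 libraries and 164 genes outside it in exactly 2.

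All cells were stromal vascular fraction cells of inguinal white adipose tissue from mice with both Nfia alleles floxed at exon 2, immortalised with SV40 large T antigen, and day 0 precedes the induction mixture given at confluence. The ctrl cells had received an empty retroviral vector. The Cre + NFIA cells carried Cre recombinase and retroviral, FLAG-tagged full-length NFIA, so they differed from ctrl in both Cre and the transgene. The other day 0 groups were used to set values side by side, Cre (Cre recombinase alone) and Cre + Δpro#3 (Cre recombinase and an NFIA with a proline-rich stretch of its C-terminal part deleted, drawn as Cre + NFIA Δpro#3 in the plots), and each group had 3 libraries. The groups derive from 1 kind of immortalised culture carrying a viral oncogene, the transgene is driven by a retroviral vector and not by the Nfia locus, and neither the number of mice behind the culture nor whether the 3 libraries of a group came from separate cultures is given in the sources used here. The p-values below therefore measure the spread between these libraries, which may be technical. In such bulk samples fewer cells of a type and less RNA per cell cannot be told apart.

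Nuclear factor I proteins bind DNA as dimers at a palindrome made of the half-site TTGGC and its reverse complement GCCAA, and a single half-site is bound more weakly. The family has the members NFIA, NFIB, NFIC and NFIX, which share a DNA-binding domain and differ in the C-terminal part that contacts co-regulators. In fat, NFIA is known as a regulator of Pparg, the nuclear receptor gene at the head of adipocyte differentiation, and of brown fat genes, and it is also known to hold back muscle genes. The inguinal stromal vascular fraction is the compartment in which adipocyte precursors, fibroblast-like cells that make much extracellular matrix, are found.

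Library totals were 11275551 to 13088356 reads in ctrl and 9440124 to 10720240 in Cre + NFIA, so the groups did not overlap in depth. With reads thinned to the smallest library 45 of the 47 genes called below were called again. On the first principal component of the 12 day 0 libraries, which held 47.8% of the variance, ctrl lay at -19.75 to -14.94, the libraries labelled Cre at -14.66 to -11.82, Cre + Δpro#3 at 9.44 to 10.35 and Cre + NFIA at 19.38 to 21.31. One library stood apart within its group. Ctrl replicate 2 differed from the other ctrl libraries by a chi-square of 10.83 and 15.94 per degree of freedom over genes, against 3.39 to 6.42 for the other pairs within a group and 26.36 to 48.77 for pairs across the groups, and without it 47 genes were called, 43 of them among the 47.

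Nfia itself was examined first, because it is the gene that was introduced. Nfia (chromosome 4, 97439425 to 97868605 on mm9) was at 6.23, 6.75 and 6.43 FPKM in the ctrl libraries and at 74.9, 69.7 and 72.7 FPKM in the Cre + NFIA libraries (log2 change 3.30, SE 0.074, limma adjusted p = 1.19e-12, 11.2-fold on the FPKM means). The groups lay far apart, and the value in Cre + NFIA counts reads of the transgene together with those of the endogenous gene. In the libraries labelled Cre it was at 6.81, 5.34 and 6.49 FPKM, within the range of ctrl or just beside it, and since only exon 2 is floxed, gene-level reads need not fall on recombination, so the value does not check the Cre label. The study's own checks of recombination are not analysed here. In Cre + Δpro#3 it was at 61.7, 59.7 and 60.7 FPKM, a little below Cre + NFIA (log2 difference of Cre + NFIA minus Cre + Δpro#3 0.25, limma adjusted p = 0.0406). Of the other family members, Nfib was at 2.69, 3.48 and 2.43 FPKM in ctrl against 1.005, 1.33 and 1.23 FPKM in Cre + NFIA, without overlap (log2 change -0.81, SE 0.12, limma adjusted p = 8.17e-05). For Nfix the ctrl libraries had 71.4, 66.3 and 76.9 FPKM and the Cre + NFIA libraries 59.5, 61.9 and 60.9 FPKM (log2 change -0.23, SE 0.075, limma adjusted p = 0.0257), and this small difference did not pass without ctrl replicate 1 (limma adjusted p = 0.0565), ctrl replicate 3 (0.101), Cre + NFIA replicate 1 (0.0777) or Cre + NFIA replicate 3 (0.0597). Nfic was at 64.0, 54.0 and 67.5 FPKM and 62.2, 57.5 and 57.0 FPKM, with overlapping groups (log2 change -0.06, SE 0.099, limma adjusted p = 0.647).

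Across the members, 47 genes (0.416%) were called, that is, they differed at a Benjamini-Hochberg adjusted p under 0.05 in limma and by at least 3-fold on the log2(FPKM + 1) scale. Of these 26 (0.230%) were higher and 21 (0.186%) lower in Cre + NFIA. Without the fold threshold, 2434 members (21.5%) were higher and 1764 (15.6%) lower. A log2 change below is Cre + NFIA minus ctrl on the log2(FPKM + 1) scale, which understates the change of genes with low FPKM, and its median over all members was 0.025. In all 47 called genes the 3 libraries of one group lay wholly above the 3 of the other. A 3-fold call favours such separation, and its share over all members is not given, so it adds no support. Of the 26 higher genes 7 met the membership rule only through Cre + NFIA, among them Bmp4, Myoc, Wfdc21, Comp, Ces2e and Slpi, and of the 21 lower genes Npnt, Daam2, Fbn2 and Col6a5 met it only through ctrl. Since such genes had to differ, their adjusted p-values are given as a description. The same holds for some named genes that were not called. Of these Adipoq and Smoc1 met the rule only through Cre + NFIA. Igf2, Igfbp2, Tmem26, Dlk1, Col14a1, Acta1 and Crispld2 met it only through ctrl. Several of the lists below hold such members, at most 5, in the matrix glycoprotein list. With no filter on low values the same 47 genes were called. Just inside the 3-fold threshold were Fxyd5 at 1.59 and Plekhg4 and Abat at -1.62, and just outside were Orm3 at 1.57, Gpx3 at 1.56 and Megf6 and Crispld2 at -1.58.

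**Figure D1:**
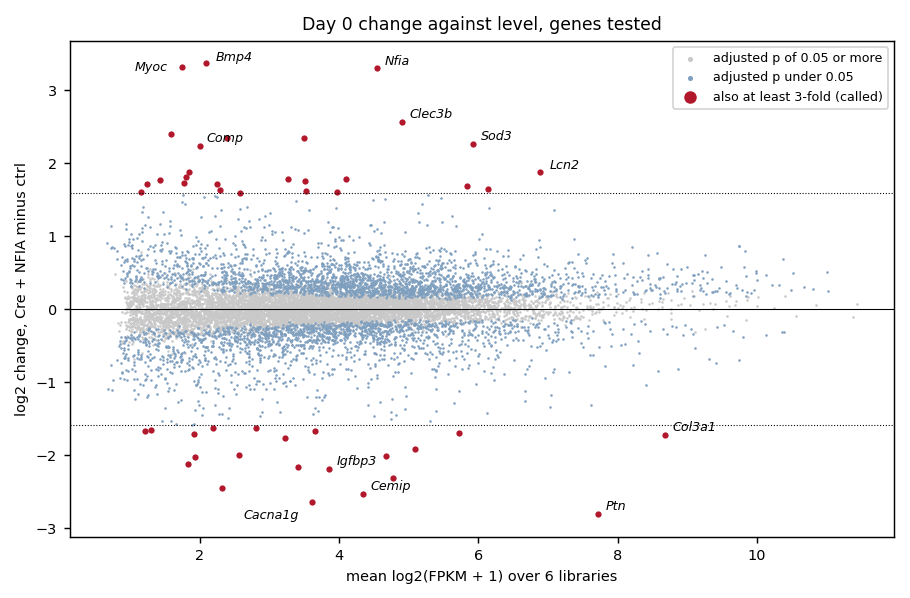
Change of each of the 11299 members (vertical axis, log2 change of Cre + NFIA minus ctrl at day 0) against its mean level (horizontal axis, mean log2(FPKM + 1) over the 6 libraries), with dotted lines at 3-fold. The 47 called genes (red) were spread over low and high levels, from Myoc and Bmp4 among the low genes to Ptn and Col3a1 among the high ones, and most genes that passed the adjusted p (blue) changed by less than 3-fold.

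Other than Nfia, the genes with the largest rises were Bmp4, Myoc and Clec3b. Bmp4 (chromosome 14, 47003195 to 47010344 on mm9), a ligand of the TGF-β superfamily known to commit precursors to the adipocyte lineage, was at 0.517, 0.351 and 0.148 FPKM in the ctrl libraries and 12.8, 11.5 and 14.0 FPKM in the Cre + NFIA libraries (log2 change 3.37, SE 0.13, limma adjusted p = 2.7e-10, 37.7-fold on the FPKM means). All 3 Cre + NFIA libraries held at least 224 reads of it and no ctrl library more than 12. Myoc (chromosome 1, 164569281 to 164579824), which encodes the secreted glycoprotein myocilin, was at 0.0426, 0 and 0.147 FPKM in ctrl against 8.25, 10.2 and 10.3 FPKM in Cre + NFIA (log2 change 3.31, SE 0.11, limma adjusted p = 8.98e-11). It was close to absent in ctrl, where the libraries held 0 to 4 reads, and was present at 183 to 229 reads in each Cre + NFIA library. Clec3b (chromosome 9, 123060064 to 123066548), which encodes the plasminogen-binding lectin tetranectin, was at 10.2, 12.3 and 11.6 FPKM in ctrl against 69.4, 78.6 and 68.5 FPKM in Cre + NFIA (log2 change 2.57, SE 0.21, limma adjusted p = 5.06e-07). No Cre + NFIA library came near the ctrl range.

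Wfdc21, a small protein with a whey acidic protein domain, was at 0.405, 0.366 and 0.174 FPKM in ctrl against 5.57, 5.56 and 6.602 FPKM in Cre + NFIA (log2 change 2.39, SE 0.16, limma adjusted p = 5.12e-08), on 1 or 2 reads in each ctrl library. Angpt4, an angiopoietin, rose from 1.71, 0.893 and 1.47 FPKM to 10.8, 11.0 and 10.8 FPKM (log2 change 2.35, SE 0.13, limma adjusted p = 1.39e-08). Its Cre + NFIA libraries were nearly equal and all above ctrl. Gdf15, a stress-induced cytokine of the TGF-β superfamily, was at 4.50, 3.99 and 3.63 FPKM in ctrl against 27.2, 24.6 and 21.8 FPKM in Cre + NFIA (log2 change 2.34, SE 0.23, limma adjusted p = 3.02e-06). Sod3, the extracellular superoxide dismutase, was at 30.9, 20.4 and 30.3 FPKM in ctrl against 136, 134 and 128 FPKM in Cre + NFIA (log2 change 2.27, SE 0.13, limma adjusted p = 1.37e-08), and ctrl replicate 2, the library that stood apart, was the lowest. Comp, a matrix protein of cartilage and tendon, rose from 0.951, 0.761 and 0.819 FPKM to 7.04, 8.08 and 7.96 FPKM (log2 change 2.24, SE 0.11, limma adjusted p = 2.31e-09). Lcn2, the iron-siderophore carrier lipocalin 2, was the most abundant of the 12 most raised genes, at 58.3, 60.9 and 64.0 FPKM in ctrl against 239.8, 216 and 224 FPKM in Cre + NFIA (log2 change 1.87, SE 0.1, limma adjusted p = 1.04e-08). Foxf2, a forkhead transcription factor of mesenchyme, and Ablim3, an actin-binding LIM protein, rose by 1.87 and 1.81.

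The other 14 higher genes, 11 of which are named after their values were seen, rose by 1.59 to 1.78 on the log2 scale. They include the chemokine Ccl9 (1.76), the cytokine Il16 (1.73) and the protease inhibitor Slpi (1.77, on 0 to 9 reads per ctrl library). Lgals3, which encodes the lectin galectin-3, was at 38.5, 37.2 and 40.8 FPKM in ctrl against 132, 123 and 117 FPKM in Cre + NFIA, with tight and separate groups (log2 change 1.65, SE 0.072, limma adjusted p = 8.98e-10). Ccnd1, which encodes cyclin D1, the cyclin that couples growth signals to entry into the cell cycle, was at 5.26, 6.37 and 5.21 FPKM in ctrl against 19.9, 19.6 and 18.4 FPKM in Cre + NFIA (log2 change 1.62, SE 0.09, limma adjusted p = 1.05e-08). Crip2, a LIM-domain protein, rose from 31.1 ± 1.72 FPKM to 102 ± 8.81 FPKM (SD, n = 3 each; log2 change 1.68, SE 0.09, limma adjusted p = 7e-09). Among the others were Slc9a3r1, a membrane scaffold (1.78), Rgs2, a regulator of G protein signalling (1.72), Ifi27l2b (1.6), Fxyd5 (1.59), Scand1 (1.78) and the carboxylesterases Ces2e (1.72) and Ces2g (1.63). Scand1 was the least certain of the 47, with 4.43, 2.43 and 6.54 FPKM in ctrl against 14.8, 19.8 and 16.2 FPKM in Cre + NFIA (SE 0.41, limma adjusted p = 0.00376). Ces2e and Ces2g are related genes that lie close together on chromosome 8, and Ifi27l2b and Wfdc21 belong to gene families, so their values are uncertain where reads fit more than 1 copy.

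**Figure D2:**
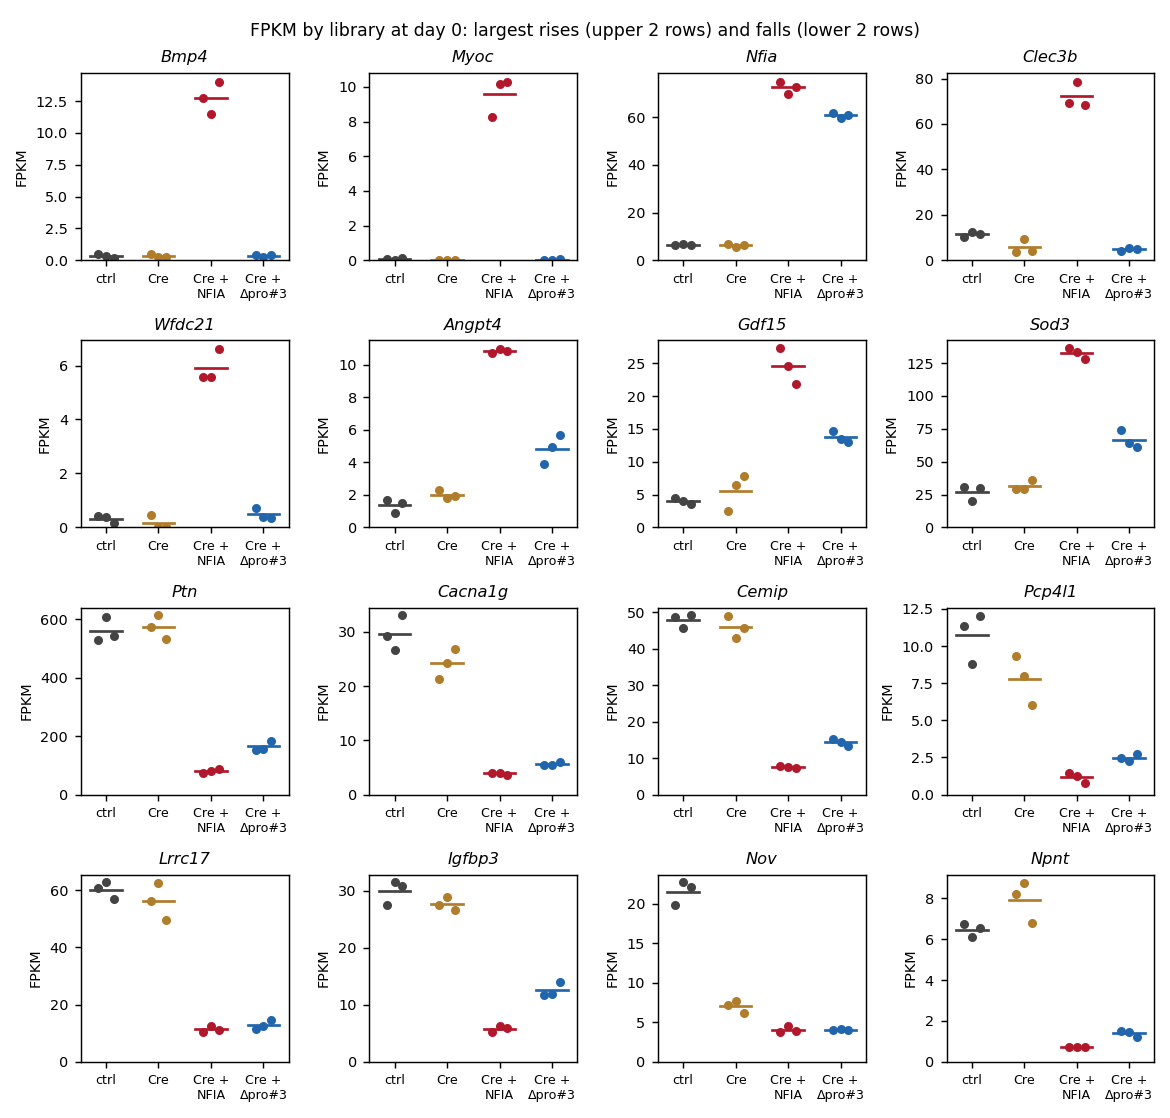
FPKM in each day 0 library (points) and group mean (line) for the 8 called genes with the largest rise and the 8 with the largest fall in Cre + NFIA against ctrl, each panel with its own linear axis. In every panel the Cre + NFIA libraries lie apart from the ctrl libraries, and Cre + Δpro#3 lies near ctrl for Bmp4, Myoc and Wfdc21 and near Cre + NFIA for Cacna1g, Lrrc17 and Nov.

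Among the called genes that fell, Ptn was both the most changed and the most abundant after Col3a1. Ptn (chromosome 6, 36665663 to 36761361 on mm9), which encodes the heparin-binding growth factor pleiotrophin, was at 528, 608 and 542 FPKM in ctrl against 72.0, 78.9 and 86.7 FPKM in Cre + NFIA (log2 change -2.80, SE 0.085, limma adjusted p = 3.01e-11, 7.06-fold lower on the FPKM means). The libraries of each group lay close together and far from the other group. Cemip, a protein needed for the breakdown of hyaluronan, fell from 48.7, 45.7 and 49.2 FPKM to 7.74, 7.47 and 7.20 FPKM (log2 change -2.53, SE 0.067, limma adjusted p = 6.74e-12, 6.4-fold lower). Cacna1g (chromosome 11, 94269705 to 94335414), which encodes a pore subunit of T-type calcium channels, fell from 29.2, 26.7 and 33.0 FPKM to 4.06, 3.96 and 3.65 FPKM (log2 change -2.64, SE 0.093, limma adjusted p = 1.37e-10). Both genes had high counts in all 6 libraries, with at least 307 reads in each.

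Lrrc17, a secreted leucine-rich repeat protein, was at 60.7, 62.8 and 57.0 FPKM in ctrl against 10.6, 12.6 and 11.0 FPKM in Cre + NFIA (log2 change -2.31, SE 0.096, limma adjusted p = 5.3e-10). Igfbp3, a carrier of insulin-like growth factors, fell from 27.6, 31.5 and 30.8 FPKM to 5.23, 6.29 and 5.85 FPKM (log2 change -2.19, SE 0.084, limma adjusted p = 2.73e-10). The matricellular protein gene Nov (CCN3) was at 19.8, 22.8 and 22.1 FPKM in ctrl against 3.81, 4.48 and 3.87 FPKM in Cre + NFIA (log2 change -2.16, SE 0.09, limma adjusted p = 5.3e-10). All 3 were clear of overlap. Npnt, which encodes the integrin ligand nephronectin, fell from 6.76, 6.10 and 6.53 FPKM to 0.723, 0.706 and 0.719 FPKM (log2 change -2.12, SE 0.099, limma adjusted p = 1.63e-09), and its Cre + NFIA libraries were nearly identical. Pcp4l1, Daam2, an effector of Wnt signalling on the actin skeleton, Susd2, the amino acid transporter Slc7a8 and the lipocalin Apod fell by 2.44, 2.02, 2.02, 2.0 and 1.92 on the log2 scale. Apod was the most variable of these in ctrl, at 54.1, 83.5 and 62.4 FPKM, and replicate 2 was again the library apart.

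The remaining 9 lower genes, 6 of them named after their values were seen, fell by 1.62 to 1.76. Col3a1, the chain of type III collagen, was at 705, 718 and 801 FPKM in ctrl against 219, 238 and 217 FPKM in Cre + NFIA (log2 change -1.72, SE 0.07, limma adjusted p = 5.21e-10), which makes it the most abundant called gene. Rspo2, a secreted enhancer of Wnt signalling, fell from 4.43, 7.45 and 5.84 FPKM to 0.809, 1.20 and 1.28 FPKM (log2 change -1.71, SE 0.15, limma adjusted p = 1.03e-06). Fbn2, the fibrillin of developing elastic fibres, fell from 2.96, 3.08 and 3.43 FPKM to 0.358, 0.313 and 0.258 FPKM (log2 change -1.67, SE 0.11, limma adjusted p = 5.22e-08). Abi3bp (-1.70), Col6a5 (-1.65) and Cpxm1 (-1.76) also encode extracellular proteins, whereas Nfatc4 (-1.67) is a calcium-regulated transcription factor and Abat (-1.62) is the enzyme that breaks down GABA. Plekhg4 fell by 1.62.

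A factor of known DNA sequence preference was introduced, along with Cre, and genes changed in both directions. The sequences before the start of genes among the most raised and the most lowered are shown here. Each is the 250 bases before the gene's start from RefSeq (GRCm38.p6, another build than the mm9 of the expression values), 5′ to 3′ on the gene's strand, in lower case with the half-site, TTGGC or GCCAA on either strand, in capitals. Nfia, whose value counts the transgene, and Cacna1g are not shown.
Bmp4 (chr14:46390670-46390919, minus strand): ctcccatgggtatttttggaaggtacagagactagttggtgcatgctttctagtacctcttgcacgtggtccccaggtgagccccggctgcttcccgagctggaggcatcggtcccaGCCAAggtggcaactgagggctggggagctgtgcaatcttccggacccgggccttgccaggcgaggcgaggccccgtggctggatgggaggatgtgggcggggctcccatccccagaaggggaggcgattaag
Myoc (chr1:162638900-162639149, plus strand): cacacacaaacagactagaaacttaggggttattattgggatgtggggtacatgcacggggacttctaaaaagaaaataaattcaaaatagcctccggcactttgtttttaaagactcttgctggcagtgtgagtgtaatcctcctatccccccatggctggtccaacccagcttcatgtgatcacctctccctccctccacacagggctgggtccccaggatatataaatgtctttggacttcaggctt
Ptn (chr6:36810180-36810429, minus strand): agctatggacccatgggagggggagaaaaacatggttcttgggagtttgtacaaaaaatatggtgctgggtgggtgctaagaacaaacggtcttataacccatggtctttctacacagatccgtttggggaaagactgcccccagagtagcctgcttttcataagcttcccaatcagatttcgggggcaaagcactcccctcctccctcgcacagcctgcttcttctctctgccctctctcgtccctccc
Cemip (chr7:84086506-84086755, minus strand): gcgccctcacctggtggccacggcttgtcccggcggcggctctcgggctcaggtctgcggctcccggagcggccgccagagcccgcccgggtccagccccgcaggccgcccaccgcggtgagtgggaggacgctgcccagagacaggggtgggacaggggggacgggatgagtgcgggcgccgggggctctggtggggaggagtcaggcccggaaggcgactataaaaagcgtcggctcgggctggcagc
The Bmp4 window held 1 half-site, as GCCAA, and the other windows shown held none. Of the called genes other than Nfia, 17 higher and 14 lower ones had a sequence in the table, and the half-site was in 7 (41.2%) and 4 (28.6%) of them. It was in 46.4% of the 8936 members with a sequence and in 41.9% of all 27025 genes of the table. With 17 and 14 genes the shares are imprecise, and nothing is read from them. The palindrome, TTGGC followed by any 5 bases and GCCAA, was in none of the called genes' windows and in 11 of the 27025, or 0.04%. A match is a description of letters in a short window, and its absence says nothing of sites elsewhere.

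Bmp4 belongs to a pathway whose other genes were described as a list. BMP ligands act through Smad proteins and raise the Id genes, while TGF-β, a relative with its own receptors, is known to hold precursors in a fibroblast state. Of 33 genes of BMP and TGF-β signalling 28 were members. Of these 13 (46.4%) were higher and 8 (28.6%) lower at the adjusted p, with a median log2 change of 0.19. Over all members 21.5% were higher and 15.6% lower, with a median of 0.025, and the list shares below stand beside these. Among ligands and extracellular modulators Bmp4 was the called gene, and Bmper, a BMP-binding protein, rose from 1.14, 0.759 and 1.10 FPKM to 2.56, 4.09 and 3.70 FPKM (log2 change 1.14, SE 0.14, limma adjusted p = 1.86e-05). Of the responding genes, Id1 was at 35.3, 24.8 and 33.1 FPKM in ctrl against 88.8, 80.1 and 61.4 FPKM in Cre + NFIA (log2 change 1.28, SE 0.17, limma adjusted p = 3.67e-05), and Id2 rose by 0.38. The Id1 groups were separate, but its Cre + NFIA libraries were unequal. Id3, at 244, 179 and 242 FPKM and 264, 258 and 239.6 FPKM, overlapped between the groups (log2 change 0.21, SE 0.11, limma adjusted p = 0.168). The inhibitory Smads Smad6 and Smad7, which feed back on the pathway, rose by 0.67 and 0.46 (limma adjusted p = 0.000425 and 0.000488). On the TGF-β side Tgfbr2, the type II receptor, fell from 52.3, 55.0 and 53.4 FPKM in ctrl to 31.1, 30.0 and 28.4 FPKM in Cre + NFIA (log2 change -0.82, SE 0.055, limma adjusted p = 6.6e-08), and Tgfbi, a TGF-β-induced matrix protein, changed by -0.86 (limma adjusted p = 6.79e-06). The genes of this paragraph other than Bmp4 were chosen after their values were seen.

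Wnt signalling is known to keep precursors from becoming adipocytes. Of 28 Wnt ligands, antagonists and targets 16 were members, with 3 (18.8%) higher, 9 (56.2%) lower and a median log2 change of -0.38. The ligand Wnt2 fell from 5.91, 5.31 and 4.59 FPKM to 1.82, 1.503 and 1.24 FPKM (log2 change -1.32, SE 0.14, limma adjusted p = 6.17e-06), as did the enhancer Rspo2 described above. The secreted Wnt antagonist Sfrp1, an abundant gene, also fell, from 204, 212 and 207 FPKM to 80.0, 79.5 and 84.9 FPKM (log2 change -1.34, SE 0.054, limma adjusted p = 4.9e-10). In the other direction Wnt10b, the ligand best known for blocking adipogenesis, was at 1.27, 0.829 and 1.20 FPKM in ctrl against 4.89, 4.66 and 4.48 FPKM in Cre + NFIA (log2 change 1.44, SE 0.14, limma adjusted p = 2.54e-06). A ligand, an enhancer and an antagonist were thus lower and another ligand higher. Wnt2, Sfrp1 and Wnt10b were chosen after their values were seen.

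Of 37 growth factors and their binding proteins 28 were members, with 6 higher, 14 lower and a median of -0.19, and Ptn and Igfbp3 were called. Igf2, the fetal insulin-like growth factor, was at 3.996, 4.24 and 4.05 FPKM in ctrl against 0.787, 0.655 and 0.845 FPKM in Cre + NFIA (log2 change -1.53, SE 0.095, limma adjusted p = 3.22e-08), and Igfbp2, a carrier of such factors, was at 2.95, 2.04 and 2.92 FPKM and 0.530, 0.599 and 0.659 FPKM (log2 change -1.18, SE 0.16, limma adjusted p = 4.9e-05). Both had separate groups, but both were members only through ctrl and so had to differ. These 2 genes were chosen after their values were seen.

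The genes of adipocyte differentiation were mostly higher, although no inducer had been given. Of 31 adipogenic regulators and adipocyte genes 23 were members, with 13 (56.5%) higher, 2 (8.7%) lower and a median log2 change of 0.50, and none was called. Pparg was at 4.54, 3.63 and 3.45 FPKM in ctrl against 4.89, 7.25 and 6.50 FPKM in Cre + NFIA, separate but close (log2 change 0.56, SE 0.15, limma adjusted p = 0.00819), and with reads thinned to the smallest library it did not pass (limma adjusted p = 0.0763). Cebpa, its partner in adipocyte differentiation, was at 12.3, 9.39 and 11.9 FPKM in ctrl against 19.6, 21.9 and 20.4 FPKM in Cre + NFIA (log2 change 0.83, SE 0.1, limma adjusted p = 2.56e-05), a clearer rise. The early regulators Cebpd and Cebpb, which act before Pparg and Cebpa, rose from 26.2, 20.2 and 29.8 to 69.0, 83.3 and 70.1 FPKM (log2 change 1.52, SE 0.2, limma adjusted p = 4.28e-05) and from 18.9, 11.4 and 17.5 to 32.6, 41.2 and 37.2 FPKM (log2 change 1.19, SE 0.18, limma adjusted p = 0.000143). Ctrl replicate 2 was the lowest library for both.

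The named genes of the differentiated adipocyte, Fabp4, Adipoq and Plin2, were far below their day 7 ctrl means of 17540, 1887 and 905 FPKM. Fabp4, the fatty acid carrier of adipocytes, was at 13.4, 11.7 and 11.4 FPKM in ctrl against 20.8, 15.7 and 18.2 FPKM in Cre + NFIA (log2 change 0.54, SE 0.18, limma adjusted p = 0.0263). This call was lost without ctrl replicate 2 (limma adjusted p = 0.0599), ctrl replicate 3 (0.0707), Cre + NFIA replicate 1 (0.105) or Cre + NFIA replicate 3 (0.0629). Adipoq, which encodes adiponectin, was at 0.432, 0.651 and 0.496 FPKM and 1.83, 1.38 and 1.21 FPKM, on at most 24 reads per library (log2 change 0.69, SE 0.21, limma adjusted p = 0.0167), and did not pass without ctrl replicate 1 (limma adjusted p = 0.0512) or Cre + NFIA replicate 1 (0.0718). Adipoq was a member only through Cre + NFIA, so its p-values are a description. The lipid droplet coat gene Plin2 rose from 33.7 ± 0.457 FPKM to 52.4 ± 2.99 FPKM (SD, n = 3 each; log2 change 0.62, SE 0.06, limma adjusted p = 2.36e-06). Zfp521, a known repressor of adipocyte fate, was the member with the largest fall, from 12.6, 13.4 and 12 FPKM to 7.40, 9.02 and 7.81 FPKM (log2 change -0.60, SE 0.084, limma adjusted p = 7.83e-05). Cebpb, Adipoq and Plin2 were chosen after their values were seen.

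No tested gene of thermogenic fat passed as higher. Of 16 such genes 5 were members, with none higher and 3 (60.0%) lower. Without ctrl replicate 3 or without Cre + NFIA replicate 1 only 1 was lower. Tmem26, used as a marker of beige precursors, was at 1.93, 2.72 and 1.92 FPKM in ctrl against 0.520, 0.776 and 0.868 FPKM in Cre + NFIA (log2 change -0.89, SE 0.12, limma adjusted p = 7e-05). Zic1, a marker of classical brown fat precursors, was the least changed, at 3.81, 3.83 and 3.63 FPKM and 3.33, 3.48 and 3.56 FPKM, close but without overlap (log2 change -0.09, SE 0.089, limma adjusted p = 0.439). Ucp1, the uncoupling protein, had 1 read over the 6 libraries. Ppargc1a, a transcriptional co-activator, had at most 2 reads in any of them. A change in either gene was therefore not detectable at this depth.

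The precursor identity of the cells was read from surface and subset markers. Ly6a (Sca-1), a surface marker of precursors, was at 1811, 1820 and 1772 FPKM in ctrl against 1812, 1939 and 1880 FPKM in Cre + NFIA, and the groups overlapped (log2 change 0.06, SE 0.057, limma adjusted p = 0.444). Of 25 adipose precursor and fibroblast subset markers 20 were members, with 5 higher, 11 lower and a median of -0.33, and Clec3b and Myoc were the called ones. Cd34 rose from 110.0, 140.0 and 105 FPKM to 215, 244 and 228 FPKM (log2 change 0.95, SE 0.1, limma adjusted p = 7e-06) and Thy1 by 0.76 (limma adjusted p = 1.37e-06). The platelet-derived growth factor receptors fell, Pdgfra from 134, 138 and 135 FPKM to 92.5, 91.0 and 101 FPKM (log2 change -0.51, SE 0.058, limma adjusted p = 1.05e-05) and Pdgfrb by 0.56. Pdgfra was lower still in the libraries labelled Cre, at a mean of 74.1 FPKM (Cre minus ctrl -0.86, limma adjusted p = 1.56e-06). Cre + NFIA lay above Cre in Pdgfra (log2 difference 0.35, limma adjusted p = 0.000329). F3, which encodes tissue factor and marks a subset of precursors known to restrain adipogenesis, fell from 112, 124 and 107 FPKM to 40.1, 43.2 and 41.7 FPKM (log2 change -1.43, SE 0.063, limma adjusted p = 8.98e-10). Dlk1 (Pref-1), a classical preadipocyte gene, was at 2.40, 2.24 and 2.68 FPKM and 0.507, 0.903 and 0.873 FPKM (log2 change -0.97, SE 0.14, limma adjusted p = 0.000123). The subset marker Dpp4 had at most 4 reads in any of the 6 libraries, and Pi16 was outside the membership rule, at 0.988, 1.82 and 1.77 FPKM in ctrl against 0.418, 0.896 and 0.499 FPKM in Cre + NFIA. The genes of this paragraph other than Clec3b and Myoc were chosen after their values were seen.

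Most of the matrix genes tested were lower. Of 24 collagen chains 21 were members, of which none was higher and 16 (76.2%) were lower. The median log2 change was -0.68, the lowest of the 19 lists. The fibrillar chains that make most of the collagen, Col1a1 and Col1a2, were at 1102, 940.5 and 1248 FPKM and 864, 840.2 and 935 FPKM in ctrl. In Cre + NFIA they were at 709.6, 677 and 627 FPKM and 536, 544 and 499.6 FPKM, all below ctrl (log2 changes -0.70 and -0.74, limma adjusted p = 0.000335 and 3.67e-06). Larger changes were seen in Col14a1, a fibril-associated chain (-1.53), and Col6a3, a chain of the microfibrillar type VI collagen (-1.45).

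Of 51 matrix glycoproteins and small leucine-rich proteoglycans 44 were members, with 11 higher, 26 lower and a median of -0.40, and Cemip, Npnt, Fbn2 and Comp were called, the last one higher. Fmod (fibromodulin) fell from 7.67, 7.99 and 8.17 FPKM to 1.95, 2.31 and 2.27 FPKM (log2 change -1.49, SE 0.081, limma adjusted p = 8.32e-09), whereas Prelp, another proteoglycan of the same class, rose from 14.2, 15.7 and 15.04 FPKM to 34.2, 36.2 and 29.5 FPKM (log2 change 1.10, SE 0.12, limma adjusted p = 7e-06) and Smoc1, a calcium-binding matricellular protein, by 1.16. Of 38 matrix proteases and their inhibitors 34 were members, with 8 (23.5%) higher, 23 (67.6%) lower and a median of -0.36. Timp3, an inhibitor of metalloproteases, rose from 82.1, 89.2 and 82.1 FPKM to 211, 227 and 213 FPKM (log2 change 1.35, SE 0.055, limma adjusted p = 5.21e-10) and the protease Adamts12 fell from 5.69, 6.13 and 5.52 FPKM to 1.62, 1.30 and 1.505 FPKM (log2 change -1.45, SE 0.097, limma adjusted p = 6.4e-08). The collagens other than Col3a1, and Fmod, Prelp and Smoc1, were chosen after their values were seen.

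**Figure D3:**
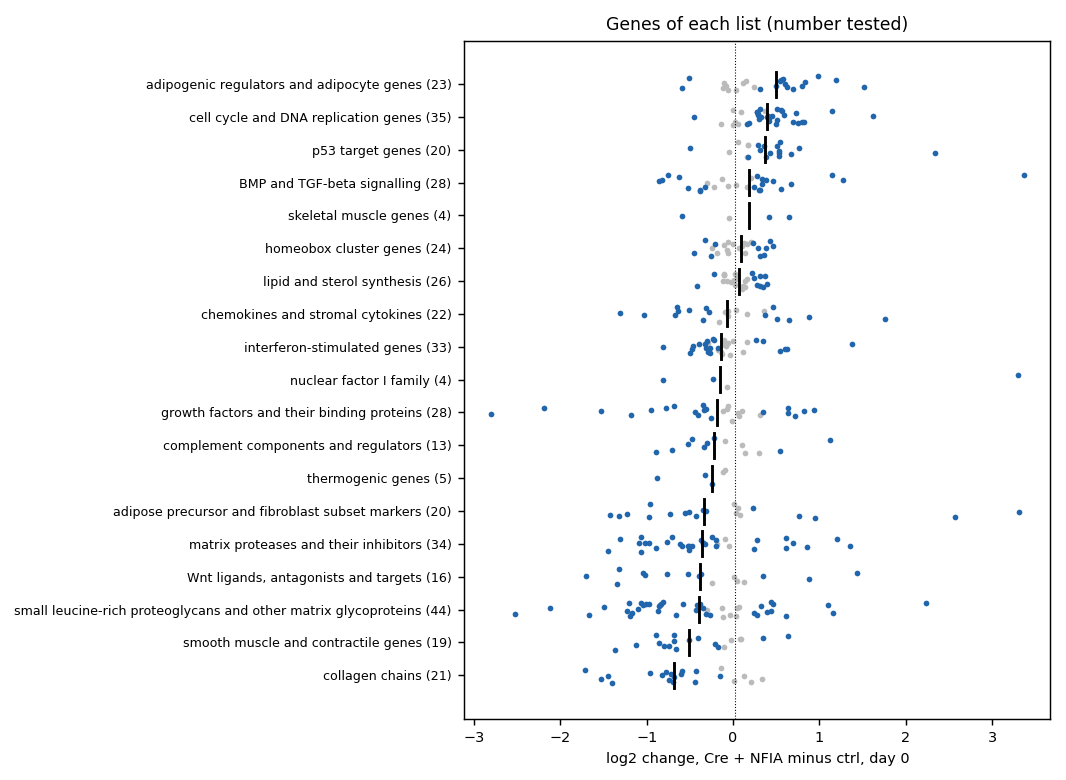
Log2 change (Cre + NFIA minus ctrl, day 0) of each member of the 19 gene lists, with the number of members beside the list's name, the list's median as a bar and the median of all members as a dotted line. Blue points passed an adjusted p under 0.05 and grey points did not. The adipogenic, cell cycle and p53 lists lie mostly to the right and the collagen, contractile and matrix lists mostly to the left.

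Most contractile genes were lower. Of 22 smooth muscle and contractile genes 19 were members, with 2 (10.5%) higher, 13 (68.4%) lower and a median of -0.51. Myl9, the regulatory light chain of smooth muscle myosin, fell from 51.2, 41.1 and 54.8 FPKM to 20.4, 15.9 and 18.6 FPKM (log2 change -1.37, SE 0.1, limma adjusted p = 2.15e-07). Acta2, the smooth muscle actin that marks myofibroblasts, was at 146, 127 and 138 FPKM in ctrl against 78.0, 73.4 and 69.2 FPKM in Cre + NFIA (log2 change -0.89, SE 0.063, limma adjusted p = 1.2e-07), and Tagln fell by 1.12. Tagln2, a relative of Tagln, rose by 0.64. Skeletal muscle genes were hardly expressed, with 4 members of 33 genes. Myod1, the master regulator of skeletal muscle, had 0 reads in all 24 libraries of the series, and Myog, which acts after it, had 0 in the 6 compared. With library totals of 9440124 to 13088356 reads, a count of 0 allows up to 3 reads per library for counting error only. Acta1 fell by 0.59 (limma adjusted p = 0.00729), and Tnnc1 differed by 0.65 (limma adjusted p = 0.0374) on 9 to 29 reads, which did not pass without ctrl replicate 1 (0.158), Cre + NFIA replicate 2 (0.15) or Cre + NFIA replicate 3 (0.106). Acta2 and Tagln were chosen after their values were seen.

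Most genes of the cell cycle were higher, in cells that SV40 large T antigen keeps in cycle. Of 35 cell cycle and DNA replication genes, all members, 27 (77.1%) were higher and 1 (2.9%) was lower, with a median log2 change of 0.39. Ccnd1 was the called gene, and Rrm2, a subunit of ribonucleotide reductase, rose from 35.0, 33.0 and 32.0 FPKM to 76.5, 76.3 and 71.8 FPKM (log2 change 1.14, SE 0.062, limma adjusted p = 7.58e-09). Cdc20, a mitotic activator, rose by 0.82 and Mki67, the Ki-67 gene, by 0.31 (limma adjusted p = 1.1e-06 and 0.00554). The gene that fell was the inhibitor Cdkn1b, at -0.46. The median of Cre + Δpro#3 minus ctrl for the list was 0.29. Against Cre + Δpro#3, 3 of the 35 were higher and 1 lower in Cre + NFIA, beside 6.20% and 5.35% over all members. Of 21 p53 target genes 20 were members, with 14 (70.0%) higher, 1 (5.0%) lower and a median of 0.37, and Gdf15 was called. The medians of Cre minus ctrl and of Cre + Δpro#3 minus ctrl were 0.15 and 0.20. Against Cre + Δpro#3, 2 of the 20 were higher in Cre + NFIA and none lower. The cell cycle inhibitor Cdkn1a (p21), which is in both this list and the cell cycle list, was among the higher genes. It was at 147, 147 and 132 FPKM in ctrl against 209, 207 and 191 FPKM in Cre + NFIA (log2 change 0.51, SE 0.07, limma adjusted p = 6.39e-05). Mdm2 rose by 0.53. Cdkn1a was also higher in the libraries labelled Cre, at 165, 198 and 194 FPKM. Apart from Ccnd1 and Gdf15 these genes were chosen after their values were seen.

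Immune gene lists were mixed. Of 33 interferon-stimulated genes, all members, 6 (18.2%) were higher and 14 (42.4%) lower (median -0.14). They ranged from Oasl1, at 40.2, 43.0 and 46.0 FPKM in ctrl against 118, 109.7 and 114 FPKM in Cre + NFIA (log2 change 1.38, SE 0.063, limma adjusted p = 1.21e-09), to Mx1, at 63.5, 91.8 and 72.8 FPKM and 36.2, 44.1 and 47.9 FPKM (log2 change -0.81, SE 0.12, limma adjusted p = 0.000138). Of 33 chemokines and stromal cytokines 22 were members, with 6 (27.3%) higher, 9 (40.9%) lower and a median of -0.07. Among the lower ones were the receptor gene Il1rl1, the IL-33 receptor (-1.31), and the chemokine Ccl11 (-1.03), both chosen after their values were seen. Of 29 complement components and regulators 13 were members, with 2 (15.4%) higher and 7 (53.8%) lower. Clu (clusterin) rose by 1.13 and Serping1, the C1 inhibitor, fell by 0.89 (limma adjusted p = 6.18e-05 and 4.47e-07).

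The positional and lipid lists had medians close to that of all members. Of 37 homeobox cluster genes 24 were members, with 7 (29.2%) higher, 4 (16.7%) lower and a median of 0.09, beside 21.5% and 15.6% over all members, from 0.46 in Hoxb6 to -0.45 in Hoxc5. Without ctrl replicate 2, or without any one of the Cre + NFIA libraries, 4 of them were higher, and without ctrl replicate 3 or Cre + NFIA replicate 2 only 2 were lower. Of 27 genes of lipid and sterol synthesis 26 were members, with 8 (30.8%) higher, 2 (7.7%) lower and a median of 0.07. Without Cre + NFIA replicate 1, 5 were higher, and under quantile normalization 5 were lower. Gpam, the first enzyme of triglyceride synthesis, rose by 0.39 and the fatty acid desaturase Fads1 fell by 0.42.

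Since Cre + NFIA and ctrl differ in Cre as well as in NFIA, the called genes were set beside the libraries labelled Cre. The comparison of Cre + NFIA with those libraries uses the same Cre + NFIA libraries, so it is not independent of the calls. All 47 called genes also passed there at an adjusted p under 0.05 in the same direction, where 16.5% of all members were higher and 14.1% lower. Nfia, whose value counts the transgene, is among the 47 and had to pass. For the 25 higher genes other than Nfia the median log2 difference of Cre minus ctrl was -0.02, with a range of -0.98 to 0.60, beside 1.78 for Cre + NFIA minus ctrl. For the 21 lower genes it was -0.31, with a range of -1.5 to 0.31, beside -2.0.

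Genes differed in where the libraries labelled Cre lay. Bmp4 was at 0.526, 0.251 and 0.243 FPKM and Ptn at 574, 612 and 533 FPKM in them, within or beside the range of ctrl. Nov was at 7.16, 7.71 and 6.14 FPKM, already well below the ctrl libraries (log2 difference of Cre minus ctrl -1.5, limma adjusted p = 6.76e-07). Fbn2, Nfatc4 and Col3a1 were also lower in the libraries labelled Cre (-1.12, -0.92 and -0.73), and lower again in Cre + NFIA. Clec3b and Comp were lower in the libraries labelled Cre (-0.98 and -0.65, limma adjusted p = 0.0196 and 0.00471) and higher in Cre + NFIA than in ctrl. For Clec3b the libraries labelled Cre were unequal, at 3.67, 9.26 and 4.04 FPKM. Some genes that were not called, Col14a1, Col6a3 and Tagln, were also lower in Cre than in ctrl (-0.92, -0.81 and -0.72). Col1a1 and Pdgfrb did not differ there at the threshold (0.07 and 0.01). Some genes that passed against ctrl did not differ at the threshold between Cre + NFIA and Cre, among them Acta1 (-0.07, limma adjusted p = 0.772). Nor did Fabp4, Adipoq and Cdkn1a (0.43, 0.50 and 0.13, limma adjusted p = 0.0769, 0.08 and 0.192). The same held for Hoxb6 and Tnnc1 (0.23 and 0.41, limma adjusted p = 0.124 and 0.19).

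The deleted proline-rich stretch is the designed difference between Cre + NFIA and Cre + Δpro#3, and a direct test of these groups was made for each member. This test again uses the Cre + NFIA libraries that made the calls. Of the 26 higher genes, 23, Nfia among them, were above Cre + Δpro#3 in Cre + NFIA (6.20% of all members). Of the 21 lower genes, 12 were lower (5.35% of all members). The median log2 difference of Cre + NFIA minus Cre + Δpro#3 was 1.26 over the 25 higher genes other than Nfia and -0.42 over the 21 lower genes. For the same genes the median of Cre + Δpro#3 minus ctrl was 0.48 and -1.63.

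Among the higher genes Bmp4 was at 0.428, 0.277 and 0.380 FPKM in Cre + Δpro#3 and Myoc was listed at 0, 0 and 0.0753 FPKM, both as low as in ctrl and without overlap with Cre + NFIA (log2 differences 3.33 and 3.36, limma adjusted p = 7.21e-10 and 1.45e-10). Clec3b, Rgs2 and Comp were at 4.81 ± 0.526, 0.662 ± 0.258 and 0.481 ± 0.161 FPKM (SD, n = 3) in Cre + Δpro#3, all below their ctrl means of 11.3 ± 1.07, 1.64 ± 0.333 and 0.843 ± 0.0971 FPKM. Angpt4 and Sod3 lay between, at 3.91, 4.94 and 5.69 FPKM and 74.4, 64.5 and 61.1 FPKM. The 3 higher genes that did not pass were Lgals3, Fxyd5 and Scand1, at log2 differences of 0.14, 0.03 and -0.20 from Cre + Δpro#3. In Lgals3 the Cre + Δpro#3 libraries, at 114, 108 and 115 FPKM, reached nearly the level of Cre + NFIA.

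Among the lower genes Ptn, Igfbp3, Cemip, Abi3bp and Col3a1 were further reduced with full-length NFIA, at log2 differences of -1.05, -1.0, -0.85, -0.85 and -0.70 from Cre + Δpro#3. Ptn was at 153, 157 and 184 FPKM in Cre + Δpro#3, between ctrl and Cre + NFIA. Lrrc17 was at 11.5, 12.5 and 14.5 FPKM, overlapping Cre + NFIA (log2 difference -0.15, SE 0.096, limma adjusted p = 0.377). Nov, at 3.97, 4.13 and 4.07 FPKM, likewise lay at the level of Cre + NFIA (difference 0.00, SE 0.09). Apod was the called gene lowest in Cre + Δpro#3 relative to ctrl, at 9.90, 12.8 and 14.1 FPKM (Cre + Δpro#3 minus ctrl -2.34).

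**Figure D4:**
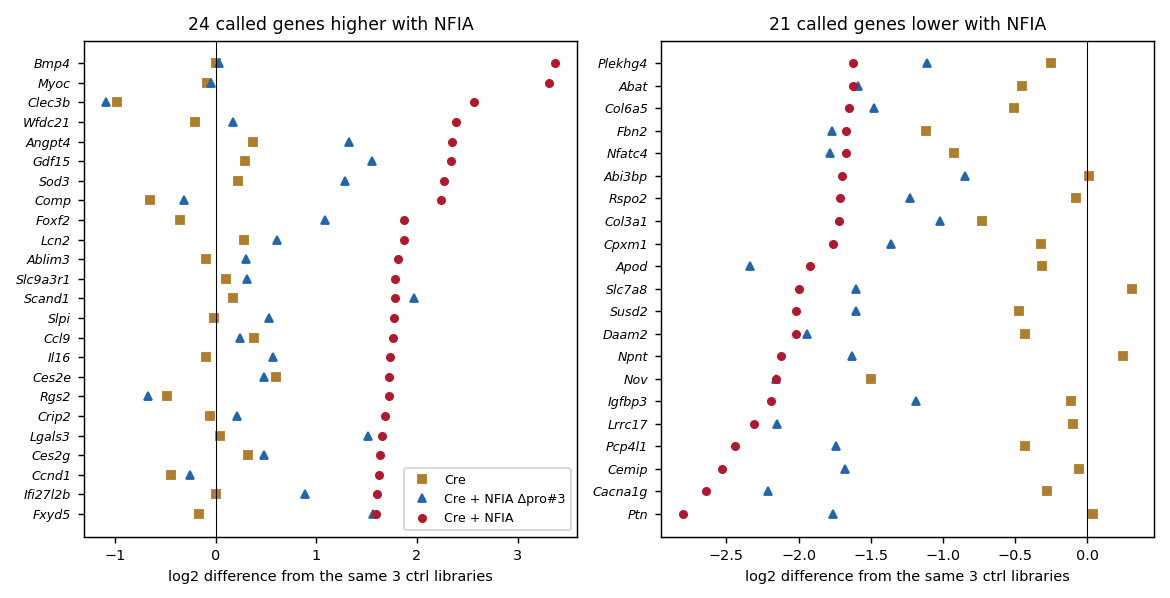
Log2 difference from the same 3 ctrl libraries of Cre (squares), Cre + Δpro#3 (triangles) and Cre + NFIA (circles) at day 0, for 24 called genes higher with NFIA (left) and the 21 lower (right). On the left the triangles lie closer to 0 than the circles do, except in Scand1. In Lgals3 and Fxyd5 they lie just beside the circles. In Gdf15, Angpt4, Sod3, Foxf2 and Ifi27l2b they lie between, nearer the circle than 0. On the right most triangles lie nearer the circles than 0 and most squares close to 0. The circles show the differences by which the genes were called.

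The adipogenic list was also read in the direct test. Of its 23 members 8 were higher and none lower in Cre + NFIA than in Cre + Δpro#3, with a median of 0.23, beside 6.20% higher and 5.35% lower over all members. Cebpa showed the clearest difference of the named genes, at 5.68, 4.72 and 5.34 FPKM in Cre + Δpro#3, below ctrl and far below Cre + NFIA (log2 difference 1.79, limma adjusted p = 3.95e-08). Pparg was at 2.52, 3.12 and 2.39 FPKM there (log2 difference 0.96, limma adjusted p = 0.000383). Cebpd and Cebpb, at 60.7 ± 1.43 and 36.4 ± 1.68 FPKM (SD, n = 3), did not differ at the threshold (0.28 with SE 0.2 and 0.02 with SE 0.18). Fabp4 leaned the other way, at 22.3, 30.4 and 26.3 FPKM in Cre + Δpro#3, without passing (log2 difference -0.50, SE 0.18, limma adjusted p = 0.0861). It was higher there than in ctrl (Cre + Δpro#3 minus ctrl 1.04, limma adjusted p = 0.00045). Of the BMP and TGF-β list 13 of 28 members were higher and 5 lower. Bmper, Smad6 and Smad7 were higher (0.71, 0.50 and 0.37) and Tgfbr2 and Tgfbi lower (-0.52 and -1.42). Id1 and Id2 did not differ at the threshold (0.17 and 0.11, limma adjusted p = 0.599 and 0.346). For Cre + Δpro#3 minus ctrl Id1 and Id2 were at 1.10 and 0.27 (limma adjusted p = 0.000175 and 0.00635). Bmp4 was at 0.03 there (limma adjusted p = 0.864). Of the collagen list 3 of 21 were higher and 7 lower. Of the contractile list 1 of 19 was higher, about the share over all members, and 3 were lower.

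The day 7 libraries, taken 7 days after differentiation was induced, were not used for the calls. Of the 26 higher genes 16, Nfia with its transgene among them, were above ctrl in Cre + NFIA at day 7 as well (8.99% of all members). Of the 21 lower genes 20 were lower (10.3% of all members). The differences were smaller. Over the 25 higher genes other than Nfia the median at day 7 was 0.44, beside 1.78 at day 0, and over the 21 lower genes it was -0.63, beside -2.0. The change between days was tested as an interaction, where 9.88% of all members had a higher and 15.1% a lower difference at day 7, and 43 of the 47 called genes passed, 22 that were higher and 21 that were lower at day 0. Since the genes were called for a large day 0 difference, a smaller one at day 7 is favoured by that choice.

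The genes that kept their difference were few. Angpt4 was at 0.627, 1.02 and 0.303 FPKM in ctrl against 9.65, 8.96 and 9.65 FPKM in Cre + NFIA at day 7 (log2 difference 2.68, limma adjusted p = 6.44e-08). Wfdc21 was at 22.1, 21.3 and 24.6 FPKM and 123, 144 and 118 FPKM (log2 difference 2.45, limma adjusted p = 1.59e-05), at a far higher level than at day 0. The groups were separate for both. Bmp4 was far lower at day 7, at 0.0791, 0.0463 and 0.241 FPKM in ctrl against 2.71, 2.03 and 2.42 FPKM in Cre + NFIA (log2 difference 1.59, limma adjusted p = 2.66e-06). Clec3b no longer differed at the threshold, at 20.7, 17.1 and 15.5 FPKM and 21.7, 17.1 and 16.2 FPKM (log2 difference 0.04, SE 0.14). Lcn2 was turned around, at 17.2, 16.8 and 18.4 FPKM in ctrl against 6.37, 6.30 and 5.21 FPKM in Cre + NFIA (log2 difference -1.41, limma adjusted p = 0.000132). Of the lower genes Ptn was at 149, 127 and 127 FPKM in ctrl against 64.7, 64.9 and 72.7 FPKM in Cre + NFIA (log2 difference -0.98, limma adjusted p = 1.71e-06), and the gene that did not pass was Slc7a8 (-0.32, limma adjusted p = 0.0557).

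**Figure D5:**
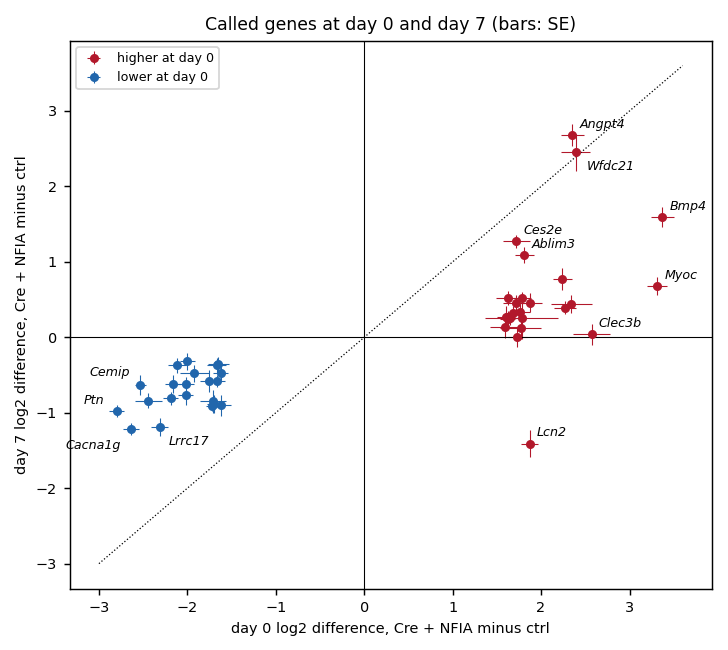
Log2 difference of Cre + NFIA minus ctrl at day 7 (vertical axis) against that at day 0 (horizontal axis) for 45 called genes, Nfia not among them, with standard errors as bars and a dotted line where both are equal. Angpt4 and Wfdc21 lie at the line, Lcn2 lies below 0, and the other genes drawn lie between the line and 0 or at 0.

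Markers of other cell types that a stromal vascular fraction can hold were measured beside these results. The 6 mature adipocyte markers summed to 16.5 to 19.3 FPKM in ctrl and 22.9 to 27.6 FPKM in Cre + NFIA, with none at 0 in all 6 libraries. All of them but Lep are also in the adipogenic list, so they are not separate evidence. Most of the sum was Fabp4, at means of 12.2 FPKM in ctrl and 18.2 FPKM in Cre + NFIA. The 12 macrophage and leukocyte markers summed to 8.67 to 10.9 FPKM in ctrl and 10.6 to 12.4 FPKM in Cre + NFIA, with 5 at 0 in all 6 libraries, among them the macrophage gene Adgre1. The pan-leukocyte gene Ptprc had 1 read in 1 ctrl library. The 10 endothelial markers summed to 6.80 to 8.96 FPKM in ctrl and 10.2 to 11.1 FPKM in Cre + NFIA, with Kdr at 3.13, 3.69 and 3.73 FPKM in Cre + NFIA (log2 change 1.21, SE 0.12, limma adjusted p = 2.46e-06), while the defining genes Pecam1 and Cdh5 had at most 5 and 1 reads in any of the 6. The 6 mesothelial markers listed summed to 2.31 to 2.89 FPKM and 6.06 to 6.75 FPKM, nearly all of it Krt19 (log2 change 1.14, SE 0.13, limma adjusted p = 1.53e-05), and Msln was at 0. The 7 epithelial markers summed to 0.647 to 0.801 FPKM and 1.20 to 1.51 FPKM, with at most 2 reads of Epcam and 1 of Cdh1 per library. The 8 pericyte and vascular smooth muscle markers summed to 10.9 to 12.1 FPKM and 10.9 to 11.8 FPKM, and the 6 Schwann cell markers to 2.21 to 2.46 FPKM and 1.28 to 1.71 FPKM. The 10 precursor and fibroblast markers, by contrast, summed to 4723 to 5133 FPKM in ctrl and 3664 to 3840 FPKM in Cre + NFIA, so markers of the labelled cell type were present in both groups, with Lum as the one that was nearly absent, at 0 to 2 reads per library. Apart from the values given here, the part of these markers in the results was not tested.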

How the data were processed

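RNA-seq of polyA RNA was analysed in 24 libraries (4 cell types, day 0 and day 7, 3 replicates each). The authors aligned stranded reads to mm9 with STAR 2.5.3a, kept uniquely aligned reads, counted the matching strand per gene and deposited FPKM, which are not counts. From the deposited FPKM, 100% of values were whole multiples of 1 read (tolerance 0.05 reads), so reads and library totals were recovered. Depths of 7732829 to 13088356 reads at day 0 limit genes near 3 reads per library, and this floor covers counting error only.

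Genes of at least 200 bases that reached an FPKM of 1 in 3 or more of the 6 libraries compared were tested on log2(FPKM + 1), a pseudocount of 1, with limma 3.58.1 (mean-variance trend) in R 4.3.3 on all 12 day 0 libraries, which share 1 estimate of the spread. Tests were two-sided, with Benjamini-Hochberg adjustment over all 11299 genes. Day 7 used the 12 day 7 libraries and the interaction all 24. Day 7 and Cre + Δpro#3 values of the same genes were compared by the same model. The model was tested on simulated data.

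The members and gene lists were chosen with earlier results of these data known. Genes named are the nuclear factor I family, Pparg, Cebpa, Fabp4, Ppargc1a, Ucp1, Myod1, Myog and Myl9, the called genes with the largest changes without overlap (at most 12 each way), called genes of a list, and for lists without a called gene the member with the largest change each way. Others are marked as chosen after their values were seen. Lists are described by counts and medians only. Date-like symbols (16 members) are not named. For 1 called gene the values are not reported here, and it is counted but not drawn by name. Gene positions come from the GENCODE vM1 annotation of NCBIM37 (mm9), and 130 of 135 genes looked up were found. Promoter windows are from RefSeq.

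A planned count of called genes that also differ between Cre and ctrl is not given, because both comparisons use the ctrl libraries. Alternatives were pseudocounts of 0.1 and 5, other filters, median-of-ratios and quantile scaling, other libraries in the model, a replicate block, no trend, other fold thresholds and each library left out. After seeing the data, limma voom on recovered reads and thinning to the smallest library were added.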

Additional observations from a re-analysis of the deposited data

Results flagged for a closer look

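For 17 genes named above, the difference between Cre + NFIA and ctrl changed between day 0 and day 7 by at least 1.6 on the log2 scale, by a test of that change itself (interaction term in limma over all 24 libraries, with adjusted p over all 11299 genes between 2.47e-10 and 0.000217). The day 0 values that chose most of these genes also enter this test.

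The difference shrank in most of the genes raised at day 0. The day 7 difference minus the day 0 difference was -2.63 in Myoc (3.31 at day 0, 0.68 at day 7), -2.52 in Clec3b (2.57 and 0.04), -1.91 in Gdf15 (2.34 and 0.44), -1.88 in Sod3 (2.27 and 0.39), -1.77 in Bmp4 (3.37 and 1.59), -1.74 in Il16 and -1.66 in Slpi. In 4 raised genes it changed sign. These were Lcn2, with a change of -3.28 (1.87 at day 0, -1.41 at day 7), Prelp, with -1.99 (1.10 and -0.89), Cebpd, with -1.86 (1.52 and -0.34), and Id1, with -1.84 (1.28 and -0.56). The day 7 difference of Cebpd did not pass the threshold of its own test (limma adjusted p = 0.0793), and those of Lcn2, Prelp and Id1 did.

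Among the genes lowered at day 0 the change was 1.89 in Cemip (-2.53 at day 0, -0.63 at day 7), 1.82 in Ptn (-2.80 and -0.98), 1.75 in Npnt (-2.12 and -0.37), 1.68 in Slc7a8 (-2.0 and -0.32) and 1.6 in Pcp4l1 (-2.44 and -0.84). Ccl11 changed sign, with 1.62 (-1.03 and 0.58), on 4 to 12 reads per Cre + NFIA library at day 0.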

How the results depend on the processing

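The count of called genes moved by over 1.5 times with the pseudocount, the use of limma voom on recovered reads, a stricter filter and the fold threshold, and was 47 with no filter on low values. With a pseudocount of 0.1, 142 genes were called (71 higher, 71 lower), of which 135 also passed against Cre, 81 against Cre + Δpro#3, 86 at day 7 and 99 for the change between days. With a pseudocount of 5, 14 were called (6 higher, 8 lower), and these counts were 14, 12, 12 and 13. The share of higher genes among the calls went from 55.3% to 42.9% there. With limma voom on the recovered reads 154 were called (76 and 78), with 146, 94, 91 and 95. A mean FPKM of at least 5, which leaves fewer genes to test, gave 30 (15 higher), with 30, 23, 21 and 28. A 2-fold threshold gave 234 (111 and 123), with 229, 143, 135 and 187, and no fold threshold 4198 (2434 and 1764), with 2647, 824, 887 and 2066. Of the genes passing without a fold threshold 58.0% were higher, against 51.6% with median-of-ratios size factors and 50.3% under quantile normalization.

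Leaving out 1 library gave 47 to 49 called genes, 25 to 27 of them higher, with 42 to 46 of them among the 47. The counts against Cre, Cre + Δpro#3, day 7 and for the change between days were then 47 to 49, 32 to 38, 36 to 39 and 41 to 43. The replicate numbers did not pair the libraries: same-numbered ctrl and Cre + NFIA libraries deviated from their group means with correlations of 0.253, 0.187 and -0.245, and other pairs with -0.442 to 0.378. With the replicate block 47 genes were called, 47 of them the same. Median-of-ratios size factors gave 48, 45 of them the same, quantile normalization 58, and the 6 libraries alone, all 24 libraries or no trend 47 each. The counts against Cre, Cre + Δpro#3 and day 7 could not be computed from the 6 libraries alone. Where a gene or setting changed its call, the cause was not tested.

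Over 18 settings that change the data or the model, the 47 called genes gave 829 values, and all 829 kept direction and an adjusted p under 0.05. Of 2138 values of 121 named genes 34 no longer passed that p. The direction turned in 2 of the 2138, for Ly6a, to -0.148 under quantile normalization, and Nfic, which ranged from -0.158 to 0.001 over the fits with 1 library left out and turned without ctrl replicate 3. Depth limits genes with a few reads per library, such as Ucp1, Ppargc1a, Dpp4 and most defining markers of other cell types, and no fold is given for these 3 genes.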
